A study of Mus musculus with 4 samples.

Results

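Immediate early and heat shock genes were followed through the mouse ovary by single-cell RNA sequencing. The members were taken from a fixed list of 10 genes among the 32285 genes counted, and all 10 were measured in all 4 libraries. The immediate early genes were Egr1, Atf3, Ier2, Ier5, Dusp1 and Nr4a1, and the heat shock genes were Hspa1a, Hspa1b, Dnajb1 and Hsph1.

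Ovaries of 8-week-old female littermates were dissociated, and 3′ RNA tags were counted as unique molecular identifiers (UMIs) on the 10x Genomics platform. Of the 4 libraries, 2 came from control mice with both Fosl2 alleles floxed, for which no Cre is named (Fosl2F/F, marked WT in the labels), and 2 from mice with the same floxed alleles and Cre recombinase (Cyp19a1-Cre; Fosl2flox/flox, named Fosl2cKO). The LoxP sites thus stood in the mice of both groups, and Cre, driven by the Cyp19a1 promoter, was to act in granulosa cells (GCs). Vaginal smears of the mice were in estrus. Ovaries were taken with n = 2 per group, as many as there are libraries, but the labels do not tie each library to 1 mouse, and the p-values below measure the spread between these libraries.

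Immediate early genes are switched on within minutes of a growth factor, hormone or stress signal from factors already present in the cell, and their transcripts are short-lived. Heat shock genes are induced by heat shock factors when unfolded protein accumulates and encode chaperones that refold it. Both groups respond in the ovary to gonadotropin and ovulatory signals, and both are also known to be induced while tissue is dissociated into single cells, so that levels in suspensions need not equal levels in the animal.

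Cells passing the filters numbered 8150 and 19575 in the Fosl2F/F libraries (named Fosl2F/F 1 and 2 below) and 6760 and 7053 in the libraries labelled Fosl2cKO (Fosl2cKO 1 and 2), with 104462668 to 111365033 UMIs in each. Fosl2F/F 2 stood apart, with a median of 3654 UMIs per cell against 11187 to 12479 in the other libraries. Fosl2 itself, in GC-like cells, was at 160 and 167 counts per 1e6 UMIs (CPM) in Fosl2F/F 1 and 2 and at 166 and 114 CPM in Fosl2cKO 1 and 2. The level of Fosl2 therefore did not set Fosl2cKO 1 apart from the controls, and the LoxP sites are described as flanking exons 2 and 4, the latter the last of the 4 annotated exons, without coordinates that would show whether the counted 3′ end is removed. Pairs of libraries shared 15 to 81 cell barcodes, and 0 barcodes were in all 4. The cells were clustered without the members and without the other stress genes listed below, and clusters were named from their markers ("-like"). Of these, 16 classes, 5 of them unnamed, and 8 subclasses of the GC-like cells had at least 20 cells in every library, and they are the 24 groups used below. Luteal-like cells, oocyte-like cells and cluster 26 had too few cells in at least 1 library.

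The promoters of 4 members are shown because Hspa1a and Hspa1b moved together between the libraries, Hsph1 is the other member with a heat shock element, and Ier5 carried the calls between the conditions. The sequences are the 250 bases before the transcription start, from RefSeq on GRCm38.p6, all on the minus strand, and capitals mark a heat shock element, the inverted repeat GAANNTTC or TTCNNGAA that heat shock factors bind.
Hspa1a, chr17:34972157-34972406: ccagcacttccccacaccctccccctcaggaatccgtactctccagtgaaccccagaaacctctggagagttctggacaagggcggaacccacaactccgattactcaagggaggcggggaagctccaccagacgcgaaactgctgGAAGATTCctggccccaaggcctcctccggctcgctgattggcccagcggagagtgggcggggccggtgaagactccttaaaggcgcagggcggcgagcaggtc
Hspa1b, chr17:34959239-34959488: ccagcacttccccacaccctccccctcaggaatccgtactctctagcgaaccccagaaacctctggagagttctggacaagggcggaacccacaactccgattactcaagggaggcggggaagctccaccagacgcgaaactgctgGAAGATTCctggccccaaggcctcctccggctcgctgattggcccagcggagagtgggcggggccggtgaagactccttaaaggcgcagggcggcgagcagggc
Hsph1, chr5:149636337-149636586: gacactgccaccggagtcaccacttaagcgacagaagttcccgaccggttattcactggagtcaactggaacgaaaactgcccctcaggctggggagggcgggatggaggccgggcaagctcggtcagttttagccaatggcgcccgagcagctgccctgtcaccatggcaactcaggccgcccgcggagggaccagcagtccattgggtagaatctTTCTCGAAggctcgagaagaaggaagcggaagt
Ier5, chr1:155099637-155099886: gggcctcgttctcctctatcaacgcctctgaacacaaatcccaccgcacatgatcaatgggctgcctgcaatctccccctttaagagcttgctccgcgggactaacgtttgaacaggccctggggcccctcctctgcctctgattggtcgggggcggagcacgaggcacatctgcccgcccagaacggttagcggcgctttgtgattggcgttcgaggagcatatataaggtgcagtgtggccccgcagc

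A RefSeq promoter window of 300 bases, 250 before and 50 after the start, was found for 8 of the 10 members, and Egr1 and Ier2 are not shown. Both strands were searched. The Hspa1a and Hspa1b windows differed at 4 of 300 bases, and each held 1 heat shock element, whose first base lies at -104. The Hsph1 window held matches at -33, 37 and 42, and the 2 that overlap at 37 form an element of 3 units. Of all 32851 promoter windows, 15.1% held the shorter element and 0.603% the element of 3 units. A cAMP response element, TGACGTCA, began at -143 in Dusp1, and 1.79% of all windows held one. The AP-1 element TGANTCA, found in 7.81% of windows, and the CArG box that serum response factor binds, found in 1.63%, were in none of the windows of the 8 members, and the windows of Ier5, Atf3, Nr4a1 and Dnajb1 held none of the motifs searched.

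In the GRCm38 annotation (GENCODE vM21), Ier5 is a gene of 1 exon at chr1:155096361-155099636 on the minus strand. Hspa1a (chr17:34969190-34972156) and Hspa1b (chr17:34956436-34959238), also of 1 exon each on the minus strand, are neighbours on chromosome 17. Of the windows of 90 bases in their transcripts, 49.3% of those in Hspa1a also occurred in Hspa1b, but 0 of 411 did in the last 500 bases, from which 3′ tags come. Reads outside that stretch could be split between the pair, so their separate values are less certain than their common pattern.

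The levels of Atf3, Ier5, Egr1, Dusp1 and Nr4a1 differed more between classes than those of the median gene, and those of Ier2 and the 4 heat shock members differed less. The SD of the class means on the log2 scale was 1.44, 1.36, 1.24, 1.10 and 0.88 for the former and 0.57 to 0.75 for the latter, against 0.84 for the median of 11361 genes. Levels are given as CPM of the UMIs summed over a class in 1 library, as mean ± SD over the 4 libraries (n = 4), and can be compared between classes for a gene but not between genes. The map of member levels shows the mean of every class.

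**Figure D1:**
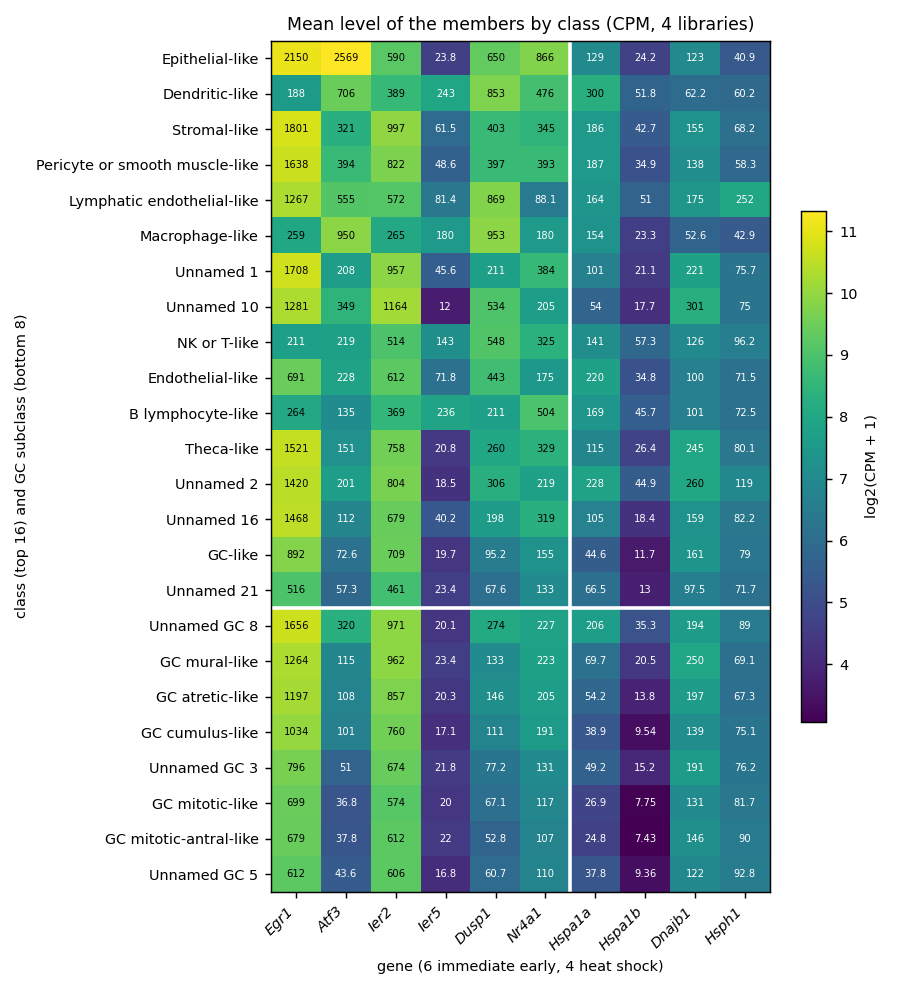
Mean level of the 10 members (columns) in 16 classes and 8 GC subclasses (rows, ordered by the mean log2 level of the immediate early members). The numbers are mean CPM over 4 libraries and the colour is log2(CPM + 1). Epithelial-like cells stand clear of the other classes for Atf3 and Nr4a1, and GC-like cells lie near the bottom for most members.

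Egr1 encodes a zinc finger transcription factor that responds to the LH surge and to many other signals. It was highest in epithelial-like cells (2150 ± 165 CPM), and its level was 2218, 2135, 1931 and 2318 CPM in Fosl2F/F 1, Fosl2F/F 2, Fosl2cKO 1 and Fosl2cKO 2. Stromal-like cells came next (1801 ± 321 CPM), with ranges of ±1 SD that overlapped those of epithelial-like cells, which were the highest class in 3 of 4 libraries. Pericyte or smooth muscle-like (1638 ± 241 CPM) and theca-like cells (1521 ± 379 CPM) lay above GC-like cells (892 ± 53.8 CPM). The 4 immune classes lay lowest of the 16, down to dendritic-like cells with 188 ± 79.2 CPM.

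Atf3, a transcription factor of the ATF/CREB family induced by many stresses, differed most between classes. It reached 2569 ± 158 CPM in epithelial-like cells and was highest there in 4 of 4 libraries, at 2535, 2800, 2454 and 2487 CPM. Macrophage-like cells followed with 950 ± 188 CPM, clear of the epithelial-like range. GC-like cells held 72.6 ± 13.4 CPM and the unnamed cluster 21, whose cells have few UMIs, 57.3 ± 40.8 CPM, a 44.8-fold span from the highest class to the lowest. After cells were thinned to 2000 UMIs, leaving out shallower cells (20.3% of Fosl2F/F 2 and 4.22% to 6.25% of the other libraries), 95.8% ± 3.67 of epithelial-like cells had an Atf3 UMI against 12.6% ± 2.20 of GC-like cells (n = 4), where the unthinned shares ran from 95.0% to 98.8% and from 32.0% to 57.0%. The part of free RNA in these shares was not tested.

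Nr4a1, an orphan nuclear receptor that also takes part in steroidogenic gene control, was likewise highest in epithelial-like cells in 4 of 4 libraries, at 1009, 764, 911 and 778 CPM. These values lay clear, by ±1 SD, of the B lymphocyte-like cells that came next (504 ± 122 CPM). Its lowest mean was in lymphatic endothelial-like cells (88.1 ± 81.8 CPM), where Fosl2cKO 1 held 208 CPM and the other libraries 29.0 to 72.3 CPM.

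Dusp1, a phosphatase that switches off MAP kinases, was highest in macrophage-like (953 ± 320 CPM), lymphatic endothelial-like (869 ± 327 CPM) and dendritic-like cells (853 ± 306 CPM). None of the 15 pairs of neighbouring classes in its order was separated by ±1 SD. GC-like cells held 95.2 ± 20.2 CPM, and cells outside the GC-like class held 3.13 to 5.37 times the Dusp1 level of GC-like cells of the same library.

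Ier2, a nuclear protein of the early growth response, had the flattest profile of the immediate early members, with a 4.40-fold span between classes. It was highest in the unnamed cluster 10 (1164 ± 421 CPM), which is led by Ces2a, Bhmt and Rgs7, and lowest in macrophage-like cells (265 ± 53.7 CPM).

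Ier5, which encodes a regulator of heat shock factor 1 and phosphatase 2A, was highest in immune cells, at 243 ± 227 CPM in dendritic-like, 236 ± 199 CPM in B lymphocyte-like, 180 ± 153 CPM in macrophage-like and 143 ± 152 CPM in NK or T-like cells. GC-like cells held 19.7 ± 16.7 CPM. The SDs were near the means because the libraries differed in every class, as described below, and in each library cells outside the GC-like class held 2.13 to 2.92 times the GC-like level.

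Among the heat shock members, Hspa1a and Hspa1b, which encode the inducible HSP70 chaperones, had their lowest means in GC-like cells, at 44.6 ± 22.3 CPM and 11.7 ± 5.47 CPM, although GC-like cells were the lowest class in only 2 of 4 libraries for Hspa1a and in 0 of 4 for Hspa1b. Cells outside the GC-like class held 2.97 to 4.55 times as much Hspa1a and 2.01 to 3.47 times as much Hspa1b in the same library. The highest class means were 300.3 ± 226 CPM for Hspa1a in dendritic-like cells and 57.3 ± 26.5 CPM for Hspa1b in NK or T-like cells, and neither was clear of the next class.

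Dnajb1, an HSP40 co-chaperone that delivers clients to HSP70, followed another order. It was highest in the unnamed clusters 10 (301 ± 129 CPM) and 2 (259.5 ± 56.1 CPM), the latter led by Abcb1b, Coro2a and Pik3c2g, and in theca-like cells (245 ± 20.5 CPM). Macrophage-like cells were lowest and the most even, at 48.3, 57.5, 53.0 and 51.6 CPM in the 4 libraries. Hsph1, the HSP110 nucleotide exchange factor of HSP70, was highest in lymphatic endothelial-like cells (252 ± 137 CPM), at 104, 224, 245 and 435 CPM in the 4 libraries. The next class, the unnamed cluster 2, held 119 ± 41.1 CPM, and epithelial-like cells, highest for 3 immediate early members, had the lowest mean of Hsph1 (40.9 ± 10.1 CPM) but were the lowest class in 0 of 4 libraries.

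Within the GC-like cells the immediate early members other than Ier5 shared their highest subclass. Egr1, Atf3, Ier2, Dusp1 and Nr4a1 were all highest in the unnamed GC subcluster 8, which is led by Dgkb, Rrad and Asb4 and has 0.436 times the median depth. It was left unnamed because no marker of its best match was among its leading genes, and Asb4 also leads the unnamed cluster 1, outside the GC-like class. In GC subcluster 8 Atf3 was at 320 ± 74.2 CPM, against 36.8 ± 5.76 CPM in GC mitotic-like cells, the lowest subclass. Hspa1a and Hspa1b were also highest in that subcluster (206 ± 137 and 35.3 ± 38.0 CPM) and lowest in GC mitotic-antral-like cells (24.8 ± 8.81 and 7.43 ± 4.25 CPM). Of the members highest in that subcluster, only Atf3 was clear of the next subclass by ±1 SD. Dnajb1 was highest in GC mural-like cells (250.2 ± 68.6 CPM), and the subclass means of Hsph1 (67.3 to 92.8 CPM) and Ier5 (16.8 to 23.4 CPM) lay close together.

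Over the means of the 16 classes, the genes most like Egr1 by Pearson's r of log2(CPM + 1) were Nenf (0.963), Dync2li1 (0.950) and Tceal1 (0.949). Those most like Ier5 were Sp110 (0.949), Map3k8 (0.948) and Sp140 (0.943), and those most like Dusp1 were Cdkn1a (0.914), Prr5l (0.884) and H2-T23 (0.877). Cdkn1a was also second for Atf3 (0.874), after Fam71a (0.894). Among the members themselves r was highest between Ier2 and Dnajb1 (0.875), Atf3 and Dusp1 (0.861) and Hspa1a and Hspa1b (0.836), and lowest between Ier5 and Dnajb1 (-0.752). Nfkbiz was among the 3 genes closest to both Hspa1a (0.833) and Hspa1b (0.828). The points share libraries and depths, and r is given as a description.

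Ier5 was the only member called between the conditions by the main edgeR test. That test used all 4 libraries, all cells kept, a filter for low-count genes and no block. Calls of Ier5 came in some groups but not over all cells. Fosl2cKO 2 was its highest library in 24 of 24 groups. Over all cells its level was 13.2 and 14.6 CPM in Fosl2F/F 1 and 2 and 36.0 and 71.0 CPM in Fosl2cKO 1 and 2. Both libraries labelled Fosl2cKO lay above both controls, with a mean 3.85 times that of Fosl2F/F. The log2 fold change was 1.88 (SE 0.34), with an adjusted p = 0.541 over 20308 genes in edgeR's quasi-likelihood test, so Ier5 was not called there. Calls needed a log2 fold change beyond 0.25 in either direction and, after Benjamini-Hochberg adjustment, a p under 0.1.

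In all cells 0 of the 10 members were called, where 0.00492% of all genes tested were. Ier5 was the only member with an unadjusted p under 0.05 and the only one called by DESeq2. Both libraries labelled Fosl2cKO were above both controls for Ier5 and Dusp1, where 19.1% of genes were, and below both for Ier2, Hspa1a and Dnajb1, where 11.9% were. Values over all cells mix the classes, and immune cells, in which Ier5 is highest, were 6.196% and 5.26% of all cells in Fosl2F/F 1 and 2 against 10.8% and 7.33% in Fosl2cKO 1 and 2. Their part in the difference over all cells was not tested.

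The same direction was found within the classes. Both libraries labelled Fosl2cKO were above both controls for Ier5 in 23 of the 24 classes and GC subclasses, against 20% of all gene-by-class pairs tested. The exception was the unnamed cluster 21, with 3, 3, 4 and 9 Ier5 UMIs. One of the 23, the unnamed cluster 10, is unsettled, since 0 of 131420 UMIs in Fosl2F/F 1 allows up to 22.8 CPM (3 UMIs) and Fosl2cKO 1 held 14.1 CPM. The fitted log2 fold change was positive in all 23 groups in which Ier5 was tested, from 1.05 in epithelial-like to 2.41 in lymphatic endothelial-like cells with a median of 1.79. Of 7383 genes tested in at least 20 of the groups, 125 (1.69%), Ier5 included, had both libraries labelled Fosl2cKO above both controls in at least 20 of them. Hspa4, Jund and Cebpd, which are described below, were also among the 125, Hspa4 with 23 of 24 groups. The groups come from the same 4 libraries and are not independent of each other.

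**Figure D2:**
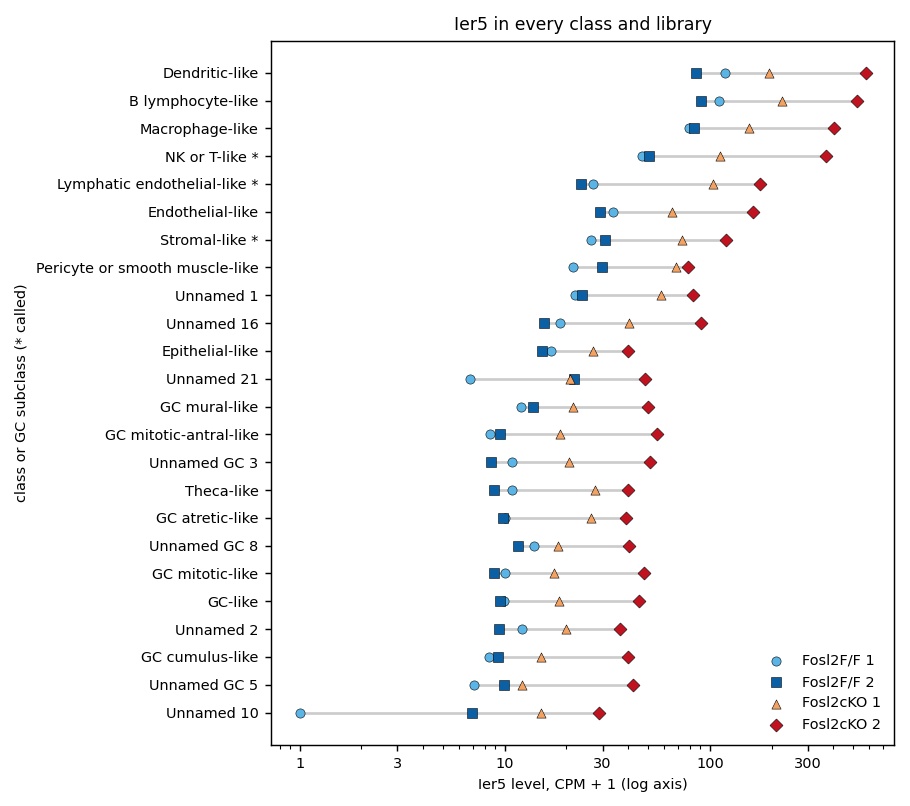
Ier5 level (CPM + 1, log axis) in each class and GC subclass, with 1 point per library and an asterisk where the edgeR test called the gene. The Fosl2cKO 2 point is the rightmost in every row and the 2 Fosl2F/F points lie to the left of both Fosl2cKO points in all rows but unnamed 21; the point at 1 in unnamed 10 is 0 of 131420 UMIs, which allows up to 22.8 CPM.

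The members were chosen with earlier results of these data known, so the shares set beside their calls are descriptions. Of all gene-by-class tests, 0.0891% were calls and 0.0664% were calls in the upward direction. Ier5 was called in 3 of the 24 groups, and it accounted for all 3 calls among 237 member-by-class tests. In stromal-like cells it was at 25.2, 29.8, 72.2 and 119 CPM in Fosl2F/F 1, Fosl2F/F 2, Fosl2cKO 1 and Fosl2cKO 2 (138, 212, 686 and 1158 UMIs). The groups did not overlap, and the log2 fold change was 1.78 (SE 0.32, adjusted p = 0.0252 by edgeR), in a class where 0.261% of genes were called. The stromal-like call was lost without Fosl2F/F 1 and without Fosl2F/F 2 in the same edgeR test, with log2 fold changes of 1.69 and 1.88. A fit without 1 library leaves 1 library in that condition and takes its spread from the other condition alone. DESeq2 called Ier5 in these cells (adjusted p = 0.000389). A block for the replicate numbers ended the call (log2 fold change 1.75, adjusted p = 0.150, edgeR).

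In NK or T-like cells Ier5 was at 45.9 and 49.4 CPM in Fosl2F/F 1 and 2 and at 111 and 366 CPM in Fosl2cKO 1 and 2. The difference, 2.25 on the log2 scale (SE 0.44, adjusted p = 0.0522 by edgeR), was a call in a class where 0.476% of genes were called. Fosl2cKO 2 lay well above Fosl2cKO 1 there. The log2 fold change was 1.18 without Fosl2cKO 2 and 2.21 without Fosl2F/F 1, each ending the call. The call was also lost among cells with over 2000 UMIs (log2 fold change 2.54, adjusted p = 0.220, edgeR) and by DESeq2 (adjusted p = 0.790).

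Lymphatic endothelial-like cells, the smallest of these classes, held 26.1 and 22.6 CPM of Ier5 in Fosl2F/F 1 and 2 and 103 and 174 CPM in Fosl2cKO 1 and 2, from 6, 10, 115 and 30 UMIs. The log2 fold change of 2.41 (SE 0.50, adjusted p = 0.0237 by edgeR) was a call where 0.371% of genes were called. With each of the 4 libraries left out in turn the log2 fold change ran from 2.10 to 2.76, with the spread again from 1 condition alone. The call was lost by DESeq2 (adjusted p = 0.217) and with the block for the replicate numbers (log2 fold change 2.47, adjusted p = 0.428, edgeR). The summed level of the 5 B lymphocyte markers, in which Ier5 is also high, was 4.34 and 4.52 CPM in Fosl2F/F 1 and 2 and 38.5 and 5.80 CPM in Fosl2cKO 1 and 2 in this class, and its part in the difference was not tested. The macrophage markers there were lower in both libraries labelled Fosl2cKO (195 and 255 CPM) than in the controls (417 and 312 CPM). The dendritic markers (17.4 and 63.3 against 54.6 and 75.4 CPM) and the NK or T markers (69.5 and 0 against 2.69 and 0 CPM) overlapped between the conditions. Of the 7 macrophage markers 2 were detected in all 4 libraries, and Adgre1 in none. Of the 5 dendritic markers 1 was detected in all, and Flt3, Xcr1 and Cd209a in none. Of the 8 NK or T markers 0 were detected in all. The part of immune cells in these sums was not tested. In stromal-like cells the summed macrophage, dendritic, B lymphocyte and NK or T markers overlapped between the conditions.

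In GC-like cells, where Cre was to act, Ier5 was at 8.94 and 8.49 CPM in Fosl2F/F 1 and 2 and at 17.5 and 44.1 CPM in Fosl2cKO 1 and 2. The groups did not overlap, but as in the other classes Fosl2cKO 2 lay above Fosl2cKO 1. The median difference was 2.37-fold over the 23 classes and subclasses without a count of 0 in any library. Over the same 23 the controls differed from each other by a median of 1.17-fold. The log2 fold change was 1.80 (SE 0.43) and missed the threshold after adjustment over 17270 genes (adjusted p = 0.656, edgeR), as did all the other members, where 0.00579% of genes were called. In cells outside the GC-like class it was 1.82 (SE 0.31, adjusted p = 0.2497, edgeR), with 21.5 and 18.1 CPM against 51.0 and 93.9 CPM, and 0 members were called where 0.0312% of genes were. These other cells include luteal-like cells and the unnamed cluster 21, whose best match was granulosa and which was left unnamed for its low depth. They also include the unnamed clusters 10 and 26, whose best match was luteal and whose second match was granulosa. Without filtering, and by DESeq2, Ier5 was called in both sets of cells.

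The difference between the GC-like and the other cells of the same library was tested across genes with limma. The condition effect on Ier5 was 0.13 lower on the log2 scale in GC-like cells, a difference of -0.13 (SE 0.25, adjusted p = 0.999, limma). Of 16855 genes, 0% were called, with 581 at an unadjusted p under 0.05, and none of the 10 members was among these. In simulated data this test recovered 1.03% of genes changed 2-fold in GC-like cells alone, and 63.4% of those changed 8-fold. The simulated GC-like and other cells were drawn independently, without the deviations that cells of the same library share. Recovery in the real data may therefore differ and was not measured. The 0 calls of this test cannot show that the GC-like and the other cells changed alike. Differences for the other members ran from -0.36 for Dusp1 (SE 0.29) to 0.41 for Hsph1 (SE 0.26).

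Dusp1 also leaned upward in the libraries labelled Fosl2cKO but was called in none of the 24 groups by edgeR with all libraries, and in 5 with Fosl2F/F 2 left out. Over all cells it was at 121 and 252 CPM in Fosl2F/F 1 and 2 and at 402 and 255 CPM in Fosl2cKO 1 and 2. Its fitted log2 fold change was positive in 24 of 24 groups, from 0.09 in B lymphocyte-like cells to 1.65 in the unnamed cluster 10, and the groups of libraries did not overlap in 15 of the 24, against the 20% of all pairs given above. The unadjusted p was under 0.05 in 9 groups, DESeq2 called Dusp1 in 0, and the lowest adjusted p was 0.388 (edgeR, NK or T-like cells). Fosl2F/F 1 was the lowest library for Dusp1 in 23 of the 24 groups, and Fosl2F/F 2 lay above it in all 24.

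**Figure D3:**
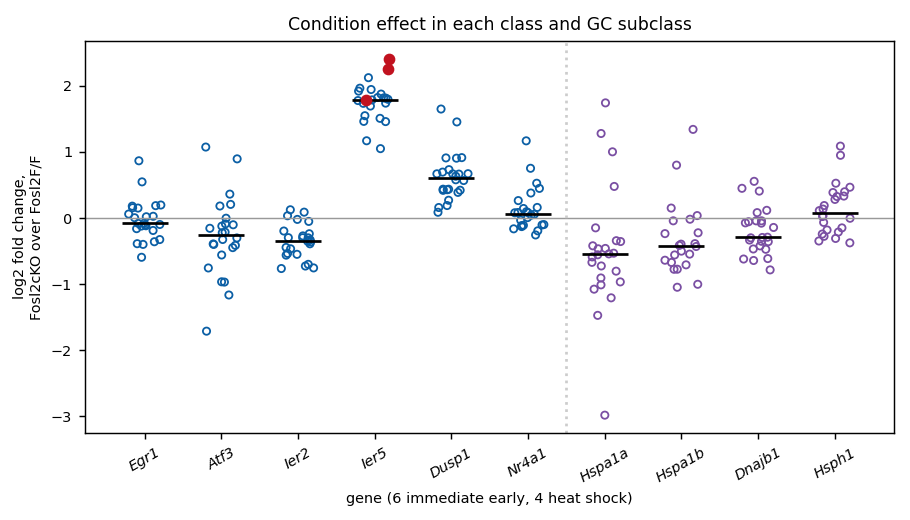
Log2 fold change (Fosl2cKO over Fosl2F/F, edgeR) of each member, with 1 point per class or GC subclass tested and a bar at the median. Red points are the 3 calls, all of Ier5; the medians run from -0.55 for Hspa1a to 1.79 for Ier5.

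The other immediate early members were called in no group by the edgeR test as described, without a block, or by DESeq2, with an unadjusted p under 0.05 in 2 groups for Egr1, 7 for Atf3, 4 for Ier2 and 1 for Nr4a1. Without Fosl2F/F 2, Atf3 was called in 2 groups, Ier2 in 1 and Nr4a1 in 1, and without the gene filter Atf3 in 2 and Ier2 in 1. Ier2 was at 937, 742, 672 and 698 CPM over all cells in Fosl2F/F 1, Fosl2F/F 2, Fosl2cKO 1 and Fosl2cKO 2, and its fitted change was negative in 21 of 24 groups (-0.76 to 0.13), with Fosl2F/F 1 the highest library in 18. Both libraries labelled Fosl2cKO were below both controls for Ier2 in 9 of 24 groups, against 13.3% of all gene-by-class pairs tested. Egr1 was at 1053, 1250, 1302 and 1096 CPM over all cells, with fitted changes between -0.59 and 0.87.

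Atf3 was at 150 and 326 CPM in Fosl2F/F 1 and 2 and at 313 and 177 CPM in Fosl2cKO 1 and 2 over all cells. The libraries of each condition thus differed from each other more than the conditions did, whose means differed by a factor of 1.03. Fosl2F/F 2 was above Fosl2F/F 1 for Atf3 in 24 of 24 groups, by a median of 1.48-fold. Within the groups its fitted change was negative in 19 of 24 (median -0.26), and both libraries labelled Fosl2cKO were below both controls in 8, against the 13.3% of all pairs. Over all cells Nr4a1 stayed between 209 and 285 CPM.

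The HSP70 pair was marked by 1 library. Over all cells Hspa1a was at 120 and 113 CPM in Fosl2F/F 1 and 2 and at 55.2 and 109 CPM in Fosl2cKO 1 and 2, and Hspa1b was at 21.5 and 27.4 CPM and at 9.57 and 28.4 CPM. Fosl2cKO 1 was the lowest library in 20 of 24 groups for Hspa1a and in 21 of 24 for Hspa1b. The highest library for Hspa1b was Fosl2cKO 2 in 10 groups and Fosl2F/F 1 in another 10. Between the 2 libraries labelled Fosl2cKO the median difference was 2.75-fold for Hspa1a over the 24 groups. For Hspa1b it was 3.40-fold over the 23 groups without a count of 0 in any library.

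**Figure D4:**
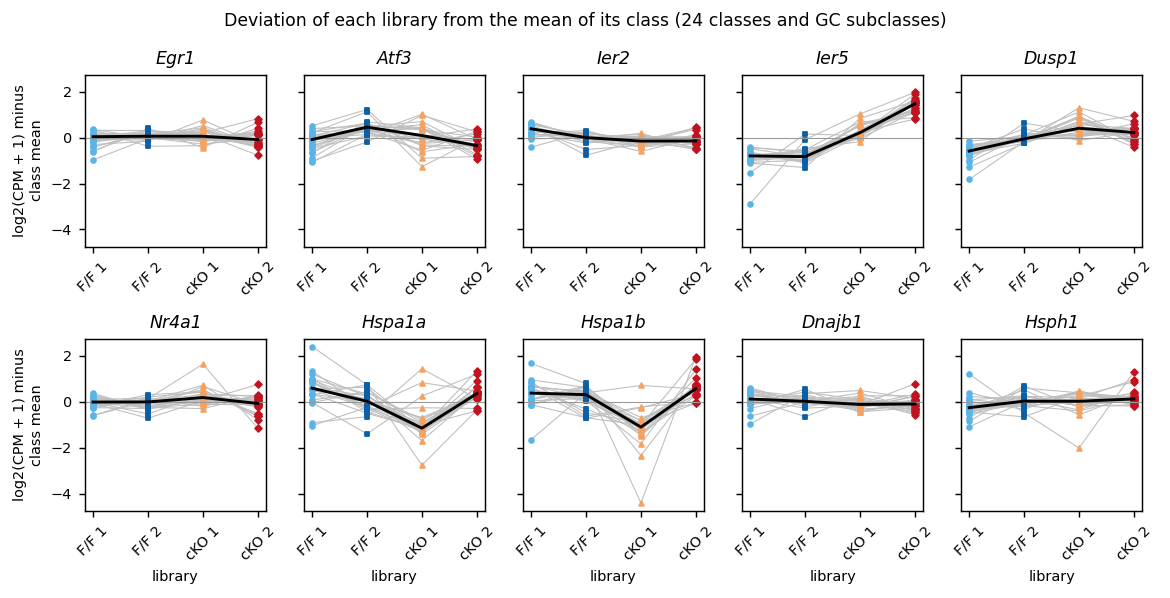
Each panel shows 1 member, with log2(CPM + 1) of each library minus the mean of its class on the y axis and the 4 libraries on the x axis. Thin lines are the 24 classes and GC subclasses and the black line is their median, which falls to -1.15 for Hspa1a and -1.10 for Hspa1b in Fosl2cKO 1 and rises to 1.46 for Ier5 in Fosl2cKO 2.

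Neither HSP70 gene was called in any group by the same unblocked edgeR test, with an unadjusted p under 0.05 in 7 groups for Hspa1a and 3 for Hspa1b. DESeq2 called Hspa1b in 0 groups and Hspa1a in 1, endothelial-like cells, at 430.4 and 218 CPM in Fosl2F/F 1 and 2 and 90.8 and 141 CPM in Fosl2cKO 1 and 2 (log2 fold change -1.47, adjusted p = 0.0134 by DESeq2 and 0.211 by edgeR). The fitted change of Hspa1a was negative in 20 of 24 groups, and it was lowest in B lymphocyte-like cells (-2.98, SE 0.64), where 62, 8, 1 and 9 UMIs were counted in Fosl2F/F 1, Fosl2F/F 2, Fosl2cKO 1 and Fosl2cKO 2. In lymphatic endothelial-like cells it went the other way, with 69.5, 83.6, 357 and 145 CPM and a log2 fold change of 1.74 (SE 0.45, adjusted p = 0.1075, edgeR) just short of a call. In those cells Fosl2cKO 1, the lowest library for Hspa1a in most groups, was the highest. Hspa1a and Hspa1b were called in more groups with Fosl2cKO 2 left out than with Fosl2cKO 1 left out. The former fits set Fosl2cKO 1 alone against the controls, with spread from the controls only. Calls over all genes also rose in both kinds of fit. Hspa1a was also called in 7 groups without the gene filter, and its rise in lymphatic endothelial-like cells was called among cells with over 2000 UMIs and among cells under 5% mitochondrial UMIs.

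Set against the 11361 genes with at least 20 CPM in a class, the SD between libraries within a class was 1.19 on the log2 scale for Ier5, the 99.2 percentile, 1.17 for Hspa1b (99.1) and 0.9985 for Hspa1a (95.2). The median of all genes was 0.61. For Ier2, Dnajb1 and Egr1 it was 0.36, 0.36 and 0.39, between the 17.8 and 24.4 percentiles. This SD was taken over the libraries of both conditions and was not matched for level. It thus holds the difference between the conditions and counting error as well as the spread between like libraries. Members of the same group differed in this SD, and what each part added was not tested.

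Over all cells Dnajb1 and Hsph1 differed less between libraries than the HSP70 pair. Dnajb1 was at 200.2 and 193.5 CPM in Fosl2F/F 1 and 2 and at 170 and 173 CPM in Fosl2cKO 1 and 2 over all cells, a log2 fold change of -0.27 (SE 0.18). Its fitted change was negative in 19 of 24 groups, and both libraries labelled Fosl2cKO were below both controls in 6, against the 13.3% of all pairs. Hsph1 was at 66.8, 89.1, 82.1 and 85.7 CPM, but within classes its spread between libraries was wider than that of Dnajb1 (SD 0.56 against 0.36 on the log2 scale). Both libraries labelled Fosl2cKO were above both controls for Hsph1 in 8 of 24 groups, against the 20% of all pairs. GC-like cells were among them, at 94.7 and 82.9 CPM against 66.1 and 72.1 CPM, with a log2 fold change of 0.33 (SE 0.16) that missed the threshold. Across the groups an unadjusted p was under 0.05 in 4 for Dnajb1 and 3 for Hsph1, and neither gene was called by the unblocked edgeR test with all libraries or by DESeq2. Without Fosl2F/F 2, Dnajb1 was called in 2 groups and Hsph1 in 1.

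Of the pathway genes outside the members, 26 other immediate early genes gave 594 gene-by-class tests, of which 12 were calls upward and 0 downward, against the 0.0664% of all gene-by-class tests called upward (101 and 15 at an unadjusted p under 0.05, and 19 and 0 calls by DESeq2). The lists were chosen with earlier results of these data known, so these shares are set side by side as a description. The calls came from 3 genes. Cebpd, a C/EBP transcription factor of inflammatory responses, rose in 9 groups with log2 fold changes of 1.86 to 2.71. Over all cells it was at 14.9 and 26.6 CPM in Fosl2F/F 1 and 2 and at 118 and 106 CPM in Fosl2cKO 1 and 2, where both Fosl2cKO libraries were high. Jund, an AP-1 subunit, rose in lymphatic endothelial-like and stromal-like cells (2.33 and 1.90) and was at 220 and 243.5 CPM in Fosl2F/F 1 and 2 and at 348 and 1298 CPM in Fosl2cKO 1 and 2 over all cells. Klf2, a Krüppel-like factor of endothelium and lymphocytes, rose in stromal-like cells (1.61, SE 0.34, adjusted p = 0.0597, edgeR). Over all cells Jund and Klf2, like Ier5, were highest in Fosl2cKO 2.

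The 20 other heat shock and chaperone genes gave 0 calls in 453 tests (21 up and 5 down at an unadjusted p under 0.05, and 2 calls upward by DESeq2, both of Hspa4). The 15 genes of the unfolded protein response gave 0 calls in 302 tests (1 up and 8 down at an unadjusted p under 0.05, and 1 downward by DESeq2, Pdia4). Both counts of 0 stand against the 0.0891% of all tests that were calls. The widest spread between libraries in all cells was that of the small heat shock protein Hspb1, at 24.7 and 57.9 CPM in Fosl2F/F 1 and 2 and at 95.4 and 51.2 CPM in Fosl2cKO 1 and 2, among the chaperones, and of Sdf2l1 (53.3 to 113.5 CPM) among the unfolded protein genes. The summed level of the 4 heat shock members was 408, 423, 317 and 397 CPM over all cells, lowest in Fosl2cKO 1. That of the 6 immediate early members was 2484, 2815, 3010 and 2505 CPM, and it was 6849 ± 162 CPM in epithelial-like and 1943 ± 168 CPM in GC-like cells.

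The deviations of the libraries from their class means, averaged over the 6 immediate early members, were followed most closely by Nfkbiz (r = 0.830), Btg2 (0.825) and Elf2 (0.789) over the 16 classes. For the 4 heat shock members the closest gene was Tox2 (0.703). Both sets of values are descriptions over points that share libraries.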

How the data were processed

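Per the labels and the methods, the authors aligned 10x 3′ reads with Cell Ranger to GRCm38 and deposited whole-number UMI counts per gene and barcode for 4 mouse libraries. CellBender is described, but whether it was applied to these counts is not stated. No library or column was set aside. A barcode was kept with 500 or more genes and more than 1000 UMIs, of which less than 10% came from mitochondrial and less than 0.1% from hemoglobin genes (depths above). Scrublet scores then removed as doublets a share that grew with the library, 0.8% for each 1000 cells. These were 614 of 8764 and 4723 of 24298 cells in Fosl2F/F 1 and 2 and 412 of 7172 and 450 of 7503 in Fosl2cKO 1 and 2. Cells were clustered after SCTransform (0.4.2) and integration in Seurat 5.3.0 on 3000 features and 30 dimensions, at a resolution of 0.8 (0.5 for GC-like cells), leaving out the members. Clusters were named from fixed markers. UMIs were summed per class and library, filtered by filterByExpr, scaled by TMM and tested with edgeR 4.0.16 (quasi-likelihood, Benjamini-Hochberg over all genes). Limma 3.58.1 tested the GC-like minus other difference. Intervals and floors cover counting error only. Tests were tried on simulated data, where edgeR recovered 13.5% of genes changed 2-fold in all cells and 31.3% in GC-like cells. With 191 to 197 genes changed, it also called unchanged genes. These were 15 in all cells, 19 in GC-like, 10 in other and 28 in stromal-like cells. Alternatives were DESeq2 1.42.0, no gene filter, a replicate block, each library left out, over 2000 UMIs, under 5% mitochondrial UMIs, 1.6% doublets, other resolutions, stress genes kept, no integration and an adjusted p under 0.05. The crossed block and the removal of the GC-content trend were chosen after seeing the data. The members and the lists were chosen with earlier results of these data known, and all members are named. From the lists, the genes called and those with the widest range over the libraries are named.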

Additional observations from a re-analysis of the deposited data

Results flagged for a closer look

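In the barcodes left out for 10% or more mitochondrial UMIs, which enter no comparison above, Ier5 was at 15.8 and 6.75 CPM in Fosl2F/F 1 and 2 and at 29.3 and 40.8 CPM in Fosl2cKO 1 and 2, a mean 3.1-fold higher in the libraries labelled Fosl2cKO. Nr4a1 was also above both controls in these barcodes, at 182 and 180 CPM against 171 and 177 CPM, by 1.04-fold. These were 2 of the 10 members, where 18.5% of 20308 genes lay above both controls. Ier2, Hspa1a, Hspa1b and Dnajb1, 4 of the 10, lay below both, where 16.9% of genes did.

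For 6 members, both libraries labelled Fosl2cKO lay above both controls in at least 1 class and below both in another. This pattern was shared by 1926 of 5000 genes (38.5%) tested in at least 14 of the 16 classes. The difference between the classes was not tested. None of these changes was called by the unblocked edgeR test with all libraries, all cells kept and the gene filter. The rise of Hspa1a in lymphatic endothelial-like cells was called under other settings, as given above. For Egr1 the fitted log2 fold changes were 0.87 in the unnamed cluster 10 and -0.59 in NK or T-like cells, for Atf3 1.07 in cluster 10 and -1.71 in the unnamed cluster 21, and for Nr4a1 0.75 in cluster 10 and -0.26 in endothelial-like cells. Fosl2F/F 1 had 59 cells in cluster 10, with a median of 1553 UMIs. For Hspa1a they were 1.74 in lymphatic endothelial-like and -2.98 in B lymphocyte-like cells, for Hspa1b 0.80 in lymphatic endothelial-like and -1.05 in NK or T-like cells, and for Hsph1 0.95 in lymphatic endothelial-like and -0.37 in pericyte or smooth muscle-like cells. All 3 heat shock members that differed in this way were higher in lymphatic endothelial-like cells, of which Fosl2cKO 2 had 30 and Fosl2F/F 1 had 37.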

How the results depend on the processing

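The number of genes called was small and unstable. In all cells 1 gene was called, against 149 by DESeq2, 6 without the gene filter and 1 to 101 with a library left out. In GC-like cells 1 was called, against 167, 255 and 0 to 131 under the same settings, and in other cells 6, against 157, 96 and 0 to 201. Of the members, 0 were called in each of these sets, against 1, 0 and 0 to 1 in all cells, 1, 1 and 0 to 1 in GC-like cells and 1, 1 and 0 to 2 in other cells. The 3 member-by-class calls became 15 by DESeq2 (14 of Ier5), 29 without the gene filter (19 of Ier5), 5 to 27 with a library left out, and 6 under 5% mitochondrial UMIs, 6 with stress genes kept for clustering and 6 without integration. With Fosl2cKO 1 left out 19 of the 20 calls were of Ier5, and with Fosl2cKO 2 left out 5 of 27. The log2 fold change of Hspa1b in dendritic-like cells, 0.15, ran from -2.27 without Fosl2cKO 2 to 1.125 without Fosl2cKO 1, and the cause was not tested. The shared replicate numbers did not pair the libraries (correlation of deviations -0.0740 in all cells, -0.159 in GC-like and 0.0460 in other cells, and -0.283 to 0.468 over the 24 groups, highest in the unnamed GC subcluster 8). With the replicate block 36, 40 and 51 genes and 1, 0 and 1 members were called in these sets and 6 member-by-class calls were made (4 of Ier5 and 2 of Hspa1a), while the stromal-like (adjusted p = 0.150, edgeR) and lymphatic endothelial-like (0.428) calls of Ier5 were lost. With the crossed replicate block the counts were 13, 111 and 29 genes, 0, 1 and 1 members and 33 calls (19 of Ier5, 8 of Hspa1a, 2 each of Atf3 and Hspa1b and 1 each of Ier2 and Dnajb1). Removing the GC-content trend kept all 3 calls of Ier5 (adjusted p of 0.0411 in lymphatic endothelial-like, 0.0666 in NK or T-like and 0.0698 in stromal-like cells, edgeR). The interaction gave 0 calls under every alternative run, but it seldom recovered 2-fold changes in simulated data. Those data were drawn independently for GC-like and other cells. With 2 libraries a condition, a fit without 1 of them takes its spread from the other condition alone. The stromal-like and NK or T-like calls of Ier5 were lost in such fits. The lymphatic endothelial-like call was not, but it was lost by DESeq2 and with the replicate block. Ier5 had few UMIs in the small classes.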
